A study of Mus musculus with 2 samples.

Results

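H/ACA snoRNAs and scaRNAs are small nuclear RNAs, most of which guide chemical modification of other RNAs, and 51 genes with their symbols were followed among the 55536 annotated genes in the nucleoplasmic RNA of mouse macrophages. The genes were taken by name and transcript type: every gene whose symbol begins with Snora or Scarna and a digit and whose transcript is annotated as a snoRNA or a scaRNA. This gave 42 Snora genes and 9 Scarna genes. The annotation types 44 of them as snoRNA, Scarna9 and Scarna10 among these, and 7 as scaRNA.

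The cells were macrophages cultured from bone marrow precursors of mice of the C57BL/6J strain. They had been given Lipid A, the Toll-like receptor 4 ligand of bacterial lipopolysaccharide, at 100 ng/ml for 12 h, had been washed free of it for 12 h, and were collected at 0 min of a second exposure. RNA of the nucleoplasmic fraction was depleted of ribosomal RNA and sequenced in 2 libraries, biological replicates 1 and 2 of this single group. Replicate 1 started from 1 µg of RNA and replicate 2 from 500 ng, and both carry a size range of 250-400 in the labels, so that the starting amount and the replicate number cannot be told apart. No sex or age was recorded in the labels. With 1 group, no comparison between conditions and no p-value was possible, and the spread given below is that between these 2 libraries.

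An H/ACA RNA folds into hairpins, each followed by a short single-stranded box. The H box (ANANNA) lies at the hinge between the hairpins and the ACA box stands just before the 3′ end. A pocket inside a hairpin pairs with the target RNA and places 1 uridine before the pseudouridine synthase dyskerin (Dkc1), which works with Gar1, Nhp2 and Nop10. Most mammalian snoRNAs are cut from introns of host genes and act on ribosomal RNA in the nucleolus. The scaRNAs reside in Cajal bodies and act on spliceosomal snRNAs, and some of them carry C/D boxes, the mark of the methylation guides, in place of H/ACA boxes or beside them.

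The annotated sequences of 5 members show these elements. They are given as DNA on the strand of the RNA, 5′ to 3′, from the GENCODE M21 transcripts of assembly GRCm38 (mm10), with each ANANNA that begins in the central of 3 equal parts and an ACA within 2 to 5 bases of the 3′ end in capitals. Snora73a and Snora73b are shown because they differed most between the libraries. Scarna13 and Scarna6 are the H/ACA and the mixed type among the abundant scaRNAs, and Snora30 is a short snoRNA that only 1 of the 2 quantifications counted.
Snora73a: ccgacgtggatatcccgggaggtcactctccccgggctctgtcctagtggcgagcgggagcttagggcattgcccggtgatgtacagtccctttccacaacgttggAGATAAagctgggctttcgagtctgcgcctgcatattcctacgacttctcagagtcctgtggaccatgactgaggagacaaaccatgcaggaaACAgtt
Snora73b: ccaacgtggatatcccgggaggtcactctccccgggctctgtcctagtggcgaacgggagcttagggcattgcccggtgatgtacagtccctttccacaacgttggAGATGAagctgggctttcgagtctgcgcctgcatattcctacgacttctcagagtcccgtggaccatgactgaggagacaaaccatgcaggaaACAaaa
Scarna13: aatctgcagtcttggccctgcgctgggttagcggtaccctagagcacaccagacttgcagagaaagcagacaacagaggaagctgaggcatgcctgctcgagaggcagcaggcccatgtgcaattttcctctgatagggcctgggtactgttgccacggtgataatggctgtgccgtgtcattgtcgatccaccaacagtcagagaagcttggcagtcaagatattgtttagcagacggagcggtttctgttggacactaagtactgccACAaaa
Scarna6: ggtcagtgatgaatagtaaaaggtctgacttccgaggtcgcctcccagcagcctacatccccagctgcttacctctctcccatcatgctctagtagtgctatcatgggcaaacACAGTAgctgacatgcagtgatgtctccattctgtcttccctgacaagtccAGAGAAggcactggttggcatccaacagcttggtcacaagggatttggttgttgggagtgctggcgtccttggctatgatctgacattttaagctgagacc
Snora30: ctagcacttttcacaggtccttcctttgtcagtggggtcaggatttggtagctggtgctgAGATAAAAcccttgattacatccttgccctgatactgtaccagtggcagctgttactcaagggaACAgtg

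Snora73a lies at chr4:132352775-132352979 and Snora73b at chr4:132352322-132352526, both on the minus strand. Scarna13 lies at chr12:105031075-105031349 on the minus strand, Scarna6 at chr1:87784556-87784820 on the plus strand and Snora30 at chr7:127527874-127528003 on the plus strand. Scarna13 has its ACA 3 bases before the end but no ANANNA that begins in the central part, and Scarna6 has 2 such ANANNA and no terminal ACA.

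Across the class, an ACA exactly 3 bases from the 3′ end was present in 35 of the 42 Snora members (83.3%), in 2 of the 9 Scarna members, in 0 of the 98 C/D box snoRNA genes (Snord) and in 301 of all 1558 annotated snoRNA and scaRNA entries (19.3%). Allowing 2 to 5 bases from the end, the counts were 40 of 42 Snora, 4 of 9 Scarna, 4 of 98 Snord and 703 of 1558 entries (45.1%). ANANNA beginning in the central part was present in 39 of 42 Snora, 6 of 9 Scarna, 52 of 98 Snord and 1242 of 1558 entries (79.7%), so it is common in sequences of this length. TGATGA, the letters of a C box in DNA, occurred in the first of 2 equal parts of 0 of 42 Snora members, 4 of 9 Scarna members, 73 of 98 Snord genes and 354 of 1558 entries (22.7%). Only the strand of the RNA was searched. By these letters most Snora genes carried the ACA box of their name, while ANANNA was too common to set them apart. The Scarna genes were a mixed set that is better called by the symbol than by the H/ACA label. From human work, SCARNA2, SCARNA9 and SCARNA17 are C/D box RNAs, SCARNA6 and SCARNA10 carry both kinds of box, and SCARNA3, SCARNA8 and SCARNA13 are H/ACA RNAs.

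The gene-level tables hold an expected count and a TPM (a level per length, scaled to a fixed total per library) for each gene. The annotated genes held 22907877 expected counts in replicate 1, against 18612405 in replicate 2. A separate deposited table per library, called the second quantification below, was made straight from the reads and has totals of 30419009 and 32279044 in replicates 1 and 2. Macrophage markers were present (8 of 8 at 10 TPM or more in each library, among them Lyz2 at 1368 and 1126 TPM in replicates 1 and 2), and of 20 markers of T, B, neutrophil, stromal and erythroid cells none reached 1 TPM in both. Nuclear RNAs were high (Malat1 at 19257 and 26338 TPM in replicates 1 and 2), and mitochondrial transcripts were also present and were higher in replicate 2, with mt-Co1 at 10656 and 17975 TPM in replicates 1 and 2. Rn7s1, the other cytoplasmic marker, went the other way, at 50061 and 32473 TPM in replicates 1 and 2.

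The 51 members held 9906 expected counts in replicate 1 and 4982 in replicate 2, which is 0.0432% and 0.0268% of the counts over annotated genes. In TPM they made up 0.529% and 0.205% in replicates 1 and 2. Of the 51 members, 10 were at 1 TPM or more in each library, against 12462 of 55536 genes overall (22.4%), and 7 members had at least 10 expected counts in both. The remaining signal was thin: 26 members had 0 expected counts in both libraries. In the second quantification 30 members reached 1 TPM in both libraries, 23 reached 10 counts in both, and 13 were at 0 in both.

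Nearly all of this signal came from the longest RNAs. The members are 70 to 414 bases long, with a median of 133. The 9 members of at least 150 bases, a length chosen after the values were seen, held 99.5% of the members' expected counts in replicate 1 and 99.9% in replicate 2, and 7 of these 9 had at least 10 counts in both libraries. Of the 42 shorter members, 0 had at least 10 expected counts in both libraries, and together they summed to 47.4 counts in replicate 1 and 4.8 in replicate 2. The same 42 members summed to 537 and 466 counts in replicates 1 and 2 of the second quantification, where 15 of them reached 10 in both libraries.

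**Figure D1:**
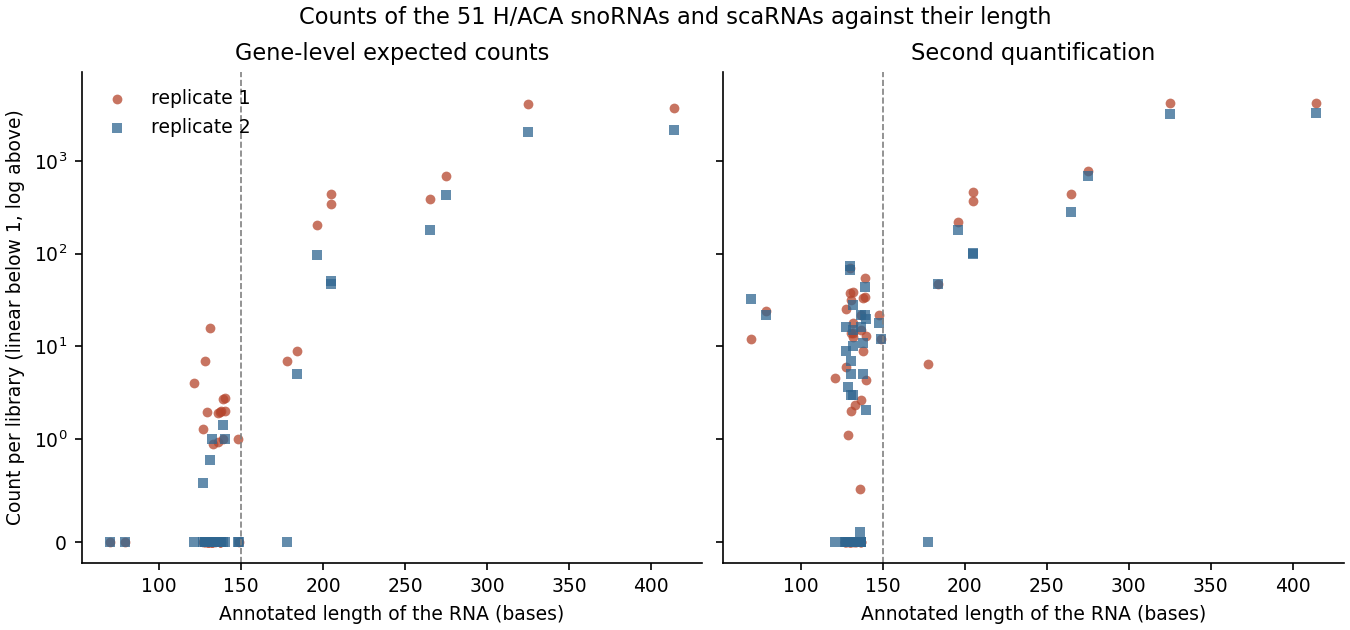
Count of each of the 51 members in each library (circles replicate 1, squares replicate 2; vertical axis linear below 1 and logarithmic above) against annotated length in bases, for the gene-level tables and for the second quantification; the dashed line marks 150 bases. In the gene-level tables the members left of the line summed to 47.4 and 4.8 counts in replicates 1 and 2, and in the second quantification to 537 and 466.

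Other small RNAs under this length had few counts too. Of C/D box snoRNAs under 150 bases, 3 of 97 had at least 10 expected counts in both libraries. Among other annotated snoRNA and scaRNA entries the figures were 4 of 1354 under 150 bases and 16 of 55 at or above it. Among entries annotated as snRNA they were 2 of 1168 and 24 of 217. Length also entered the TPM through the effective length, the number of start positions a fragment of typical size can take in an RNA. In the gene-level tables it was 0 for 27 members in replicate 1 and for 10 in replicate 2, and for members under 150 bases it reached at most 2.48 bases in replicate 1 and 3.49 in replicate 2. The second quantification used effective lengths of 18.4 to 25.2 bases in replicate 1 and 18.6 to 24.8 in replicate 2 for the same RNAs.

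As a result, a gene-level TPM of a short member rests on very few reads. The longer Snora43 entry (139 bases) had 2.72 and 1.43 expected counts in replicates 1 and 2 and was listed at 67.5 and 29.3 TPM. Snora7a, in the ribosomal protein gene Rpl32, had 2.80 counts and 65.4 TPM in replicate 1 and was at 0 in replicate 2. Snora52 (55.8 TPM from 1.97 counts in replicate 1, 0 in replicate 2), Snora5c (58.4 TPM from 1.92 counts, 0 in replicate 2) and Scarna3a (46.7 and 19.2 TPM from 2 counts and 1 count in replicates 1 and 2) complete the short members among the 12 with the highest mean TPM. The opposite also occurred: Snora68 had 15.9 expected counts in replicate 1 and a TPM of 0, because its effective length there was 0, and 0.80 counts and 28.4 TPM in replicate 2. In all, 6 members in replicate 1 and 1 in replicate 2 had expected counts above 0 with an effective length of 0. Levels of members under 150 bases are therefore given below as counts.

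Among the scaRNAs, Scarna10 and Scarna2 were the most abundant members. Scarna10, whose human counterpart guides both pseudouridylation and methylation of U5 snRNA, had 4100 and 2030 expected counts in replicates 1 and 2, or 1423 and 726 TPM, with a mean of 1075 ± 493 TPM (SD, n = 2). It is 325 bases long and lies at chr6:125186359-125186683 within Ncapd2, a condensin subunit gene that was itself at 1.98 and 3.34 TPM in replicates 1 and 2. Scarna2, a guide for U2 snRNA in human cells, is the longest member with 414 bases and has no host gene in the annotation (chr3:108554338-108554751, minus strand). It had 3683 and 2140 counts, or 698 and 437 TPM, in replicates 1 and 2, with a mean of 567 ± 185 TPM. Scarna10 was above Scarna2 in both libraries. Of the 31-base words of Scarna10, 70.2% also stand in an annotated Ncapd2 transcript and 85.1% in Gm28967, an overlapping entry at 0 counts in both libraries, whereas those of Scarna2 stand in no other entry.

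Scarna13 and Scarna6 followed. Scarna13, in the noncoding gene Snhg10, had 683 and 430 counts and 400 and 251 TPM in replicates 1 and 2, with a mean of 326 ± 105 TPM. Scarna6, in an intron of the autophagy gene Atg16l1, had 391 and 179 counts and 261 and 118 TPM in replicates 1 and 2, with a mean of 190 ± 101 TPM. These 4 scaRNAs of at least 150 bases together held 89.4% of the members' expected counts in replicate 1 and 95.9% in replicate 2.

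The 5 shorter Scarna members were near 0 at the gene level, with 3 counts in replicate 1 and 1 count in replicate 2 in all. In the second quantification they summed to 85 and 101 counts in replicates 1 and 2. Scarna3b had 34 and 22 counts there in replicates 1 and 2. Scarna17 had 24 and 22, and Scarna9, the shortest member with 70 bases, had 12 and 32. Scarna9 was thus higher in replicate 2 and Scarna3b in replicate 1. Scarna3a had 13 and 19.8 counts and Scarna8 had 2 and 5 in replicates 1 and 2. Scarna3a and Scarna3b are 85.7% identical over 140 aligned bases and lie on chromosomes 1 and 12.

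Among the Snora genes, 3 of 42 had at least 10 expected counts in both libraries. Snora73b and Snora73a belong to the U17 family, which in yeast and mammals acts in cleavage of the ribosomal RNA precursor and not as a modification guide. Snora73b had 440 and 50.2 counts in replicates 1 and 2, or 859 and 91.8 TPM, with a mean of 475 ± 542 TPM. Snora73a had 341 and 47.4 counts in replicates 1 and 2, or 666 and 86.7 TPM, with a mean of 376 ± 410 TPM. Snora74a, known as U19 in human cells, had 205 and 95.4 counts and 501 and 216 TPM in replicates 1 and 2, with a mean of 358 ± 202 TPM. Snora23, in the importin gene Ipo7, had 9 and 5 counts at 184 bases in replicates 1 and 2, and Snora81, in the translation factor gene Eif4a2, had 6.88 and 0 at 178 bases.

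On the scale of log2(TPM + 0.1), the median over all 51 members was -3.32 in both libraries, the value of a gene listed at 0. The 42 Snora members and the 98 Snord genes both had this median, so that their difference was 0. The median of the 9 Scarna members was higher than that of the Snora members by 8.23 ± 0.90 (SD, n = 2). That Scarna median is the value of Scarna3a, a short member with 2 counts and 1 count in replicates 1 and 2. Its 46.7 and 19.2 TPM are thus set against a Snora median at 0, and the size of this difference is not reliable. In the second quantification, where fewer members were at 0, the Scarna members were higher by 2.82 ± 0.29, and the Snora members were higher than the Snord genes by 4.04 ± 0.72. At the gene level without genes at 0 counts in both libraries, this last difference was -4.08 in replicate 1 and -10.4 in replicate 2. It then compares 19 Snora members, several of them with counts in replicate 1 only, with just 4 Snord genes. These are differences between groups of unequal length and were not tested.

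By mean TPM the order was Scarna10, Scarna2, Snora73b, Snora73a, Snora74a, Scarna13 and Scarna6, and of its neighbours Scarna10 and Scarna2, and Scarna13 and Scarna6, differed by more than the larger of their SDs. The other neighbours did not, and in replicate 2 alone Scarna13, Snora74a and Scarna6 stood above the Snora73 pair. The 5 highest members of each library held 78.5% of the members' TPM in replicate 1 and 85.2% in replicate 2. The second quantification gave counts close to the gene-level ones in replicate 1 (the gene-level counts were 0.878 to 0.97 of them) and higher ones in replicate 2 (0.485 to 0.653). Totals over annotated genes differed too. They were 22907877 at the gene level and 30419009 in the second quantification in replicate 1, and 18612405 and 32279044 in replicate 2. For these members the TPM values of the second quantification were lower throughout. Scarna10 had 460 and 404 TPM there in replicates 1 and 2, Scarna2 276 and 249, Scarna13 121 and 125, and Snora74a 68.3 and 68.4. The gap was widest for the shortest of these RNAs. For Snora74a the gene-level TPM was 7.33 times that of the second quantification in replicate 1 and 3.16 times in replicate 2. In replicate 1 its effective length was 14.1 bases at the gene level and 38.2 in the second quantification. For Scarna2 the TPM ratios were 2.53 and 1.75 in replicates 1 and 2. A lower TPM in the second quantification was not particular to these RNAs. Lyz2 had 502 and 570 TPM there in replicates 1 and 2, against 1368 and 1126 at the gene level. Rn7sk had 95022 and 142353, against 278637 and 298015. Pih1d1 went the other way, with 8.91 and 12.1 against 6.17 and 6.31.

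**Figure D2:**
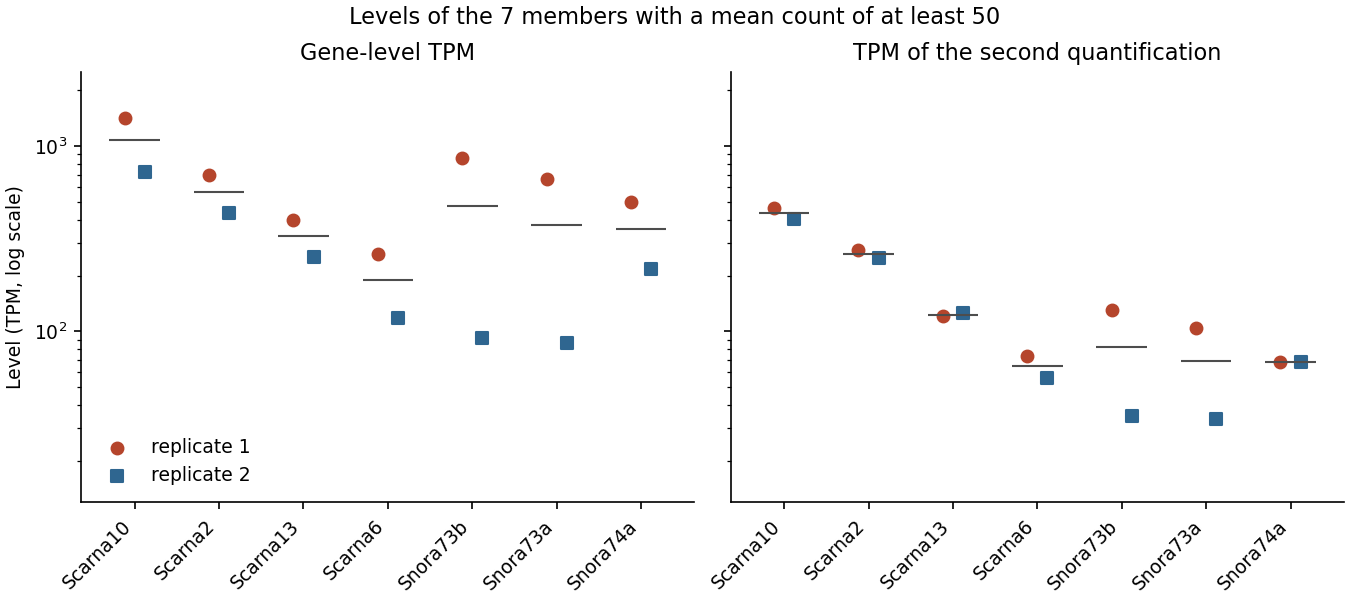
TPM (log scale) of the 7 members with a mean expected count of at least 50 in replicate 1 (circles) and replicate 2 (squares), with the mean of both as a line, for the gene-level tables and for the second quantification. Snora73b stands at 859 and 91.8 TPM in replicates 1 and 2 at the gene level, while Scarna13 and Snora74a nearly coincide between libraries in the second quantification.

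Some members at 0 in both gene-level libraries had counts in the second quantification. Of these 26 members, 9 reached 10 counts in both libraries there, Scarna9 and Scarna17 among them. Snora30 had 70 and 66 counts in replicates 1 and 2 and Snora31, in an intron of Tpt1, had 38 and 74. Snora2b in Kansl2 had 22 and 22, Snora47 in Zbed3 had 33 and 11, Snora21 in Rpl23 had 15 and 16, and Snora41 in Eef1b2 had 14 and 15, in replicates 1 and 2. Outside the members at 0, the longer Snora43 entry had 55 and 44 counts and Snora17 had 39 and 28. Across the 51 members the counts of the second quantification ranked alike in the 2 libraries (Spearman's rho 0.889, a description over members that share the libraries and the annotation). Only Snora35, Snora70, Snora64, Snora28, Snora3, Snora33, Snora65, Snora24, Snora61, Snora75 and the longer Snora16a entry, 11 members, were at 0 in both libraries of both quantifications.

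Whether the second quantification gave a member any count went with how the member sits in its host gene. Each member was cut into words of 31 bases, and the words were looked for in overlapping transcripts of the same strand other than small RNAs, where they are found if such a transcript retains the intron or has an exon there. Of the 19 members with every word in such a transcript, 11 were at 0 in both libraries of the second quantification and 1, Snora74a, reached 10 counts in both. Of the 25 members with no word in one, 2 were at 0 in both, Snora35 and the shorter Snora43 entry, and 17 reached 10 in both. The shorter Snora43 entry has every word in the longer Snora43 entry, which as a small RNA was not searched. Median counts were 0 and 0 in the first set and 18 and 16 in the second, in replicates 1 and 2. Among members under 150 bases, 0 of 17 with every word and 13 of 21 with no word reached 10 counts in both libraries. Reads of an RNA whose whole sequence also stands in its host's transcripts cannot be assigned by sequence alone, so a 0 for the 11 members with every word shared does not show that the RNA was absent.

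**Figure D3:**
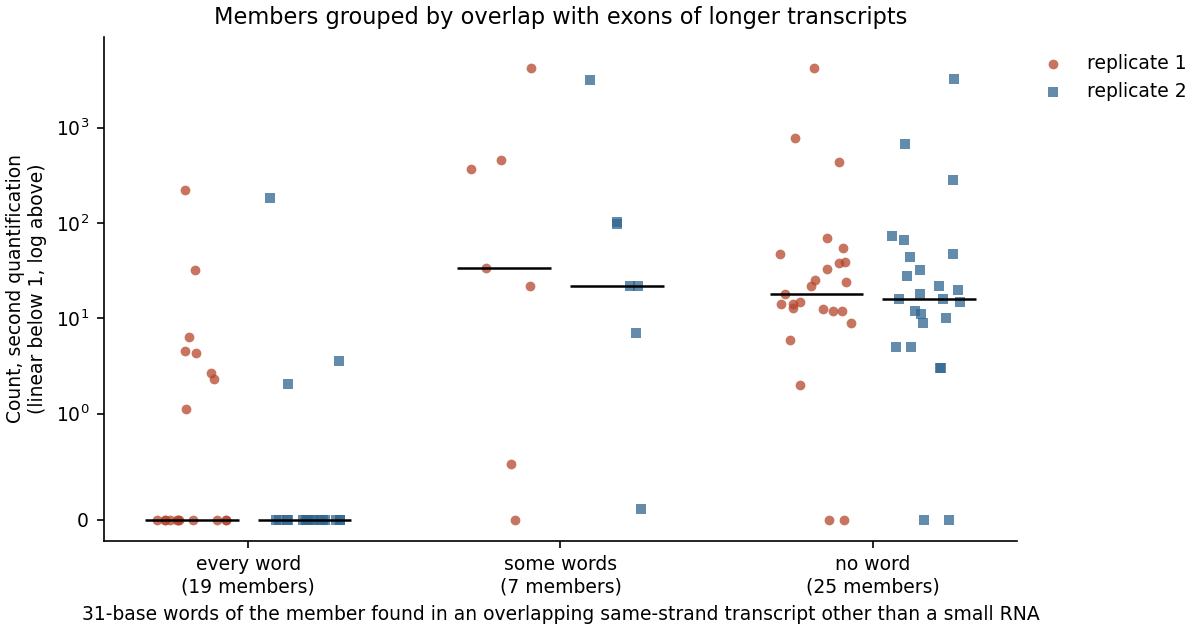
Count of each member in the second quantification (axis linear below 1 and logarithmic above; circles replicate 1, squares replicate 2; line, median) by whether every, some or no 31-base word of it stands in an overlapping transcript of the same strand other than a small RNA. The 19 members with every word shared have medians of 0 and 0, and the 25 with no word shared have medians of 18 and 16, in replicates 1 and 2.

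Members also shared sequence with entries elsewhere in the genome, and whether this went with their counts was not tested. Of the 51 members, 24 share at least 1 word of 31 bases with an annotated entry at another place, 33 share one with an overlapping entry, and 12 share none with either. Snora17 shares words with 14 entries elsewhere, from 1 to 19 of its 102 words with each, and Snora73a and Snora73b with 5 each. Scarna2, Scarna6, Snora23, Snora31, Snora47 and Snora62 are among the 12 with none. Values of the other members are uncertain to the extent that the authors' counting split reads among such entries.

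Host genes were found for 45 of the 51 members, in 40 genes. By kind of host, 11 members lie in 11 ribosomal protein genes, 5 in 4 translation factor genes and Tpt1, 12 in 8 noncoding genes, most of them small nucleolar RNA host genes (Snhg), and 17 in 16 other protein-coding genes. The ribosomal protein hosts ranged over libraries from 11.8 to 102 TPM, and the translation factors and Tpt1 from 27.2 to 163 TPM. Their members had few gene-level counts: the 11 members of ribosomal protein genes summed to 20.6 and 0.80 counts in replicates 1 and 2, and the 5 members of translation factor genes and Tpt1 to 6.88 and 0. All 11 of the first set and 4 of the 5 of the second are under 150 bases. The noncoding hosts had a median of 8.92 and 8.20 TPM in replicates 1 and 2, while their 12 members summed to 1684 and 623 counts. The 17 members in other protein-coding genes summed to 4507 and 2215 counts in replicates 1 and 2, of which Scarna10 held 4100 and 2030. Only 4 members in noncoding genes and 2 in other protein-coding genes had a mean count of at least 10. All of these are at least 150 bases long, so the sums do not separate the kind of host from length.

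Over the 45 members with a host, the median log2 ratio of member over host was -6.82 ± 0.09 (SD, n = 2), with 0.1 TPM added to both. Without members at 0 counts it was 1.27 in replicate 1 and -4.96 in replicate 2. Of these members, 6 were above their host in TPM in both libraries, and all 6 are at least 150 bases long. Scarna10 exceeded Ncapd2 by 719-fold and 217-fold in replicates 1 and 2, Scarna13 exceeded Snhg10 by 241-fold and 192-fold, and Scarna6 exceeded Atg16l1 by 8.95-fold and 4.51-fold. The level of Snhg10 rests on only 13 and 10 expected counts in replicates 1 and 2, so the folds of Scarna13 are uncertain. Snora74a exceeded its host, the noncoding gene AC121821.1, by 44.8-fold and 17.7-fold in replicates 1 and 2. Snora73b and Snora73a exceeded Snhg3 by 56.6-fold and 43.9-fold in replicate 1 and by 4.2-fold and 3.97-fold in replicate 2. In the second quantification 13 members were above their host in both libraries, and the folds were smaller, at 272-fold and 119-fold for Scarna10 and 45.2-fold and 38.4-fold for Scarna13 in replicates 1 and 2.

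**Figure D4:**
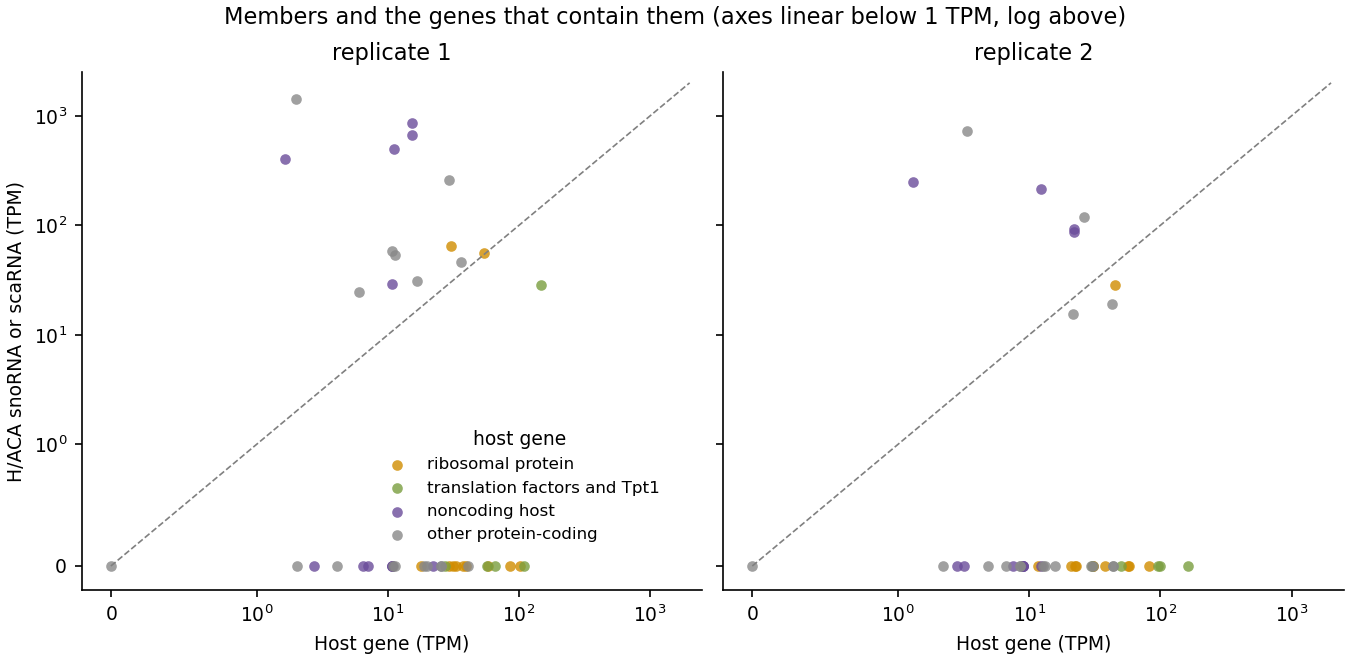
TPM of the 45 members with a host gene against TPM of the host, per library (axes linear below 1 TPM and logarithmic above; dashed line, equal levels), coloured by the kind of host. Members above the line in both libraries number 6, and hosts of members listed at 0 reach 163 TPM.

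Hosts with more than 1 member gave few counts apart from Snhg3, whose Snora73b and Snora73a were described above and had 50.2 and 47.4 counts in replicate 2. Snhg12, a noncoding host at 10.7 and 8.93 TPM in replicates 1 and 2, contains Snora44, Snora61 and 2 nested Snora16a entries. Snora44 had 1.96 and 0 counts, the shorter Snora16a entry 0.97 and 0, and the longer Snora16a entry and Snora61 had 0 in both libraries. All 4 have every word in a transcript of Snhg12. In Kansl2, at 11.4 and 8.52 TPM, Snora2b had 22 and 22 counts and Snora34 had 9 and 5 counts in the second quantification, in replicates 1 and 2. Snora35 lies in Htr2c, a serotonin receptor gene of the brain, and both the RNA and its host were at 0 in both gene-level libraries.

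The libraries differed in the same direction for all 7 members that were well counted at the gene level. Log2 ratios of replicate 1 over replicate 2 were taken from TMM-scaled counts for the 7 members with a mean count of at least 50, and all 7 were above 0, where 50.3% of the 11895 genes past the same minimum were. The median over the 7 members was 0.85, and over all 11895 genes it was 0.00. An absolute log2 ratio of at least 1 was reached by 2 of the 7, Snora73b and Snora73a, and by 2.78% of all genes; in the direction of replicate 1 the share of all genes was 1.52%. No p-value belongs to these ratios, since each sets 1 library against 1 other.

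Snora73b had the largest ratio among the members, at 2.87 (95% counting interval 2.46 to 3.33), the 6th highest of the 11895 genes, and Snora73a followed at 2.59 (2.16 to 3.08), the 8th highest. The pair is 96.6% identical. Counted from the 5′ end of Snora73a, the differences are G3A, G54A, A111G, T164C, G203A, T204A and T205A, with the base of Snora73a first. Reads within the shared stretches cannot be told apart, so the sum is the safer value: 781 and 98 counts in replicates 1 and 2, a log2 ratio of 2.73 (2.43 to 3.06). The antisense gene Gm17300 also overlaps the pair and holds 87.4% of the words of Snora73a and 100% of those of Snora73b on the opposite strand. Gm17300 had 199 and 129 counts in replicates 1 and 2, and without knowledge of strand use in the counting, its reads and those of the pair cannot be told apart. Gm26448, an annotated snoRNA of 203 bases that shares words with both, had 93 and 16 counts in replicates 1 and 2 and a ratio of 2.25. The overlapping host went the other way, as Snhg3 had 99 and 128 counts in replicates 1 and 2, with a ratio of -0.62 (-1.02 to -0.24). On the same strand, however, Snhg3 holds 129 of the 175 words of Snora73a and 56 of the 175 words of Snora73b. Its counts thus depend on how shared reads were split, so Snhg3 is not an independent contrast to the pair.

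The other 5 well-counted members were closer. Scarna6 had a ratio of 0.87 (0.61 to 1.14) and Snora74a one of 0.85 (0.50 to 1.22). The most abundant members, Scarna10 and Scarna2, had ratios of 0.76 (0.68 to 0.84) and 0.53 (0.45 to 0.61). Scarna13 had the smallest, 0.41 (0.24 to 0.59). Each interval lies above 0 but covers counting error only. The second quantification kept all 7 above 0 with smaller values, from 0.33 for Scarna13 to 2.33 for Snora73b. Snora30 and Snora31 had a mean count of at least 50 only there. Snora30 had 70 and 66 counts in replicates 1 and 2, and Snora31 went the other way, with 38 and 74. The mass of RNA taken, the mitochondrial transcripts and the effective lengths (17.6 and 22.3 bases for the Snora73 pair in replicates 1 and 2) differed between the same libraries, and their part in these ratios was not tested.

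**Figure D5:**
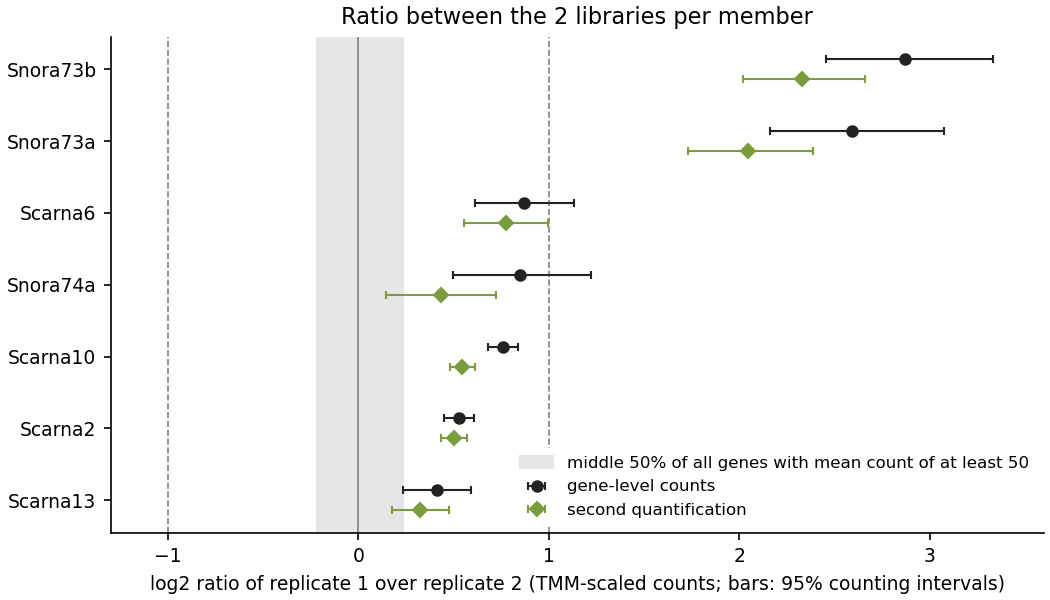
Log2 ratio of replicate 1 over replicate 2 of the 7 members with a mean count of at least 50, with 95% counting intervals, from gene-level counts (black circles) and from the second quantification (green diamonds); the grey band is the middle 50% of all genes past the same minimum and dashed lines mark an absolute ratio of 1. All 7 lie above 0, and only the Snora73 pair, at 2.87 and 2.59, lies beyond 1.

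Transcripts of the proteins that carry these RNAs were present. Those of all 4 H/ACA core proteins were at 1 TPM or more in each library: dyskerin (Dkc1) averaged 6.38 ± 1.44 TPM (SD, n = 2), Gar1 4.74 ± 2.01, Nhp2 2.97 ± 0.15 and Nop10 1.61 ± 0.28. The 4 C/D core proteins were at 5.79 to 19.4 TPM on average, with Nop56 highest at 19.4 ± 2.02 and the methyltransferase fibrillarin (Fbl) lowest at 5.79 ± 1.27. All 7 H/ACA assembly factors passed 1 TPM in both libraries, from Ruvbl2 and Shq1, each near 1.48 TPM on average, through Naf1 at 1.83 ± 0.00, Ruvbl1 at 2.29 ± 0.48, Nufip1 at 2.70 ± 0.32 and Rpap3 at 2.72 ± 0.13, to Pih1d1 at 6.24 ± 0.10. For context, 44.4% of 22028 protein-coding genes passed 1 TPM in both libraries, and their median was 0.45 TPM.

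Of the 7 Cajal body and scaRNA proteins, 6 passed 1 TPM in both libraries. Tgs1, which forms the trimethylguanosine cap of snRNAs and of some snoRNAs, stood highest at 40.4 ± 4.24 TPM, and Lsm11, a subunit of U7 snRNP, lowest at 0.56 ± 0.04. Coilin (Coil), the scaffold of Cajal bodies, was at 2.35 ± 0.19 TPM and Wrap53, which brings scaRNAs there, at 2.33 ± 0.72. Nolc1 was at 2.64 ± 0.01, Smn1 at 7.63 ± 1.70 and Lsm10 at 8.28 ± 0.54 TPM. All 5 genes of snoRNA 3′ end processing passed 1 TPM, with Tent4b at 10.4 ± 2.78, the exosome nuclease Exosc10 at 9.60 ± 1.54, Toe1 at 4.62 ± 0.20, Parn at 3.63 ± 0.48 and Dis3 at 3.41 ± 1.05 TPM.

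Of 12 stand-alone pseudouridine synthases, which need no guide RNA, 11 passed 1 TPM in both libraries. Trub2 (14.3 ± 3.22 TPM), Pus10 (11.2 ± 1.18) and Pusl1 (5.08 ± 0.63) were highest, and Pus7l (1.37 ± 0.02), Rpusd3 (1.18 ± 0.10) and Rpusd2 (0.92 ± 0.14) lowest. Terc, the telomerase RNA, carries an H/ACA domain but falls outside the symbol rule. It had 49 and 33 counts in replicates 1 and 2 and averaged 7.66 ± 1.70 TPM, below each of the 7 well-counted members.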

How the data were processed

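Per the labels, both libraries of the single group hold nucleoplasmic RNA after ribosomal depletion. The deposited gene-level tables give expected counts and TPM per gene, made by the authors from alignments to the transcriptome per the notes beside the files. The second quantification, also deposited, gives estimated counts and TPM per transcript straight from the reads, and was summed here per gene. The assembly is mm10 and the annotation GENCODE M21. For programs, versions and strand use, the sources used here give nothing.

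Expected counts were rounded to whole numbers for ratios. Ratios used TMM factors (0.985 and 1.02 in replicates 1 and 2) from edgeR 4.0.16 in R 4.3.3 on 14892 genes, with a prior count of 0.5. DESeq2 1.42.0 size factors were an alternative. Entries naming no annotated gene (1.01% and 0.336% of expected counts in replicates 1 and 2) were left out, and 86 genes have no value in the second quantification. Counting intervals are exact (Clopper-Pearson, 95%) and cover counting error only. The calculation of ratios and intervals was checked on simulated counts; the ratios themselves carry no test. The host is the smallest gene of the same strand that contains the member. Python 3.11.15, pandas 2.3.3, Biopython 1.88 and matplotlib 3.10.9 were used.

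The members, gene lists and comparisons were chosen with earlier results of these data known. Genes named with values are the 12 members highest in TPM, the scaRNAs with a mean count of at least 10, the largest ratios and differences between quantifications, members of hosts with at least 3 of them, and the lists. Other members were named after their values were seen.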

Additional observations from a re-analysis of the deposited data

How the results depend on the processing

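Counts and levels of short members depended on the quantification. Members at 1 TPM or more in each library numbered 10 at the gene level and 30 in the second quantification, where 23 had 10 counts in both, an alternative added after the data were seen. Over single libraries (leaving out each replicate), 12 to 18 members passed. The share of the members' TPM held by the 5 highest averaged 81.8%, against 69.8% in the second quantification and 93.3% for counts per annotated base. The median level of members, -3.32 on the log2 scale, was 0.0 with a pseudocount of 1, -6.64 with 0.01, 1.11 without members at 0 counts (5.55 and -3.32 in replicates 1 and 2) and 2.57 in the second quantification.

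The difference of Snora members and Snord genes, 0.0 at the gene level, was -7.26 without genes at 0 counts (-4.08 and -10.4 in replicates 1 and 2) and 4.04 in the second quantification, so it has no stable direction. Without genes at 0 counts, 19 Snora members and 4 Snord genes were left. That of Scarna and Snora members, 8.23, stayed positive at 4.96 with a pseudocount of 1, 7.11 without genes at 0 counts (3.46 and 10.8 in replicates 1 and 2), 2.82 in the second quantification and 3.23 for counts per annotated base. The values 8.23, 4.96 and 3.23 rest on Scarna3a alone, with 2 counts and 1 count in replicates 1 and 2. The ratio of member over host, -6.82, was -3.61 with a pseudocount of 1 and -1.67 in the second quantification. Without members at 0 counts it averaged -1.85 but turned positive in replicate 1, at 1.27, against -4.96 in replicate 2. Beyond what fewer genes or another added constant gives, the cause was not tested.

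The members apart between libraries numbered 2 under library totals, DESeq2 size factors and the second quantification. Minimum mean counts of 20 and 100 also gave 2, but they could not have given another number. At the gene level the lowest mean count among the well-counted members was 150 (Snora74a), and the next member had 8.33 (Snora68). Both minimums thus keep the same members with the same ratios. The median ratio over members past the count minimum lay between 0.50 and 0.87 in these settings. No paired analysis was possible because the series has 1 group. By counting error alone, a count of 0 in a library allows up to 3 reads. That bound does not hold for members that the gene-level quantification left at 0, such as Snora30, which had 70 and 66 counts in replicates 1 and 2 of the second quantification.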

Other observations

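Other annotated snoRNA and scaRNA entries of at least 150 bases, 55 in all, summed to 19582 and 26354 expected counts in replicates 1 and 2. Most of that came from Gm22009 (343 bases), with 16790 and 24871 counts and a log2 ratio of replicate 1 over replicate 2 of -0.82. Gm25395 (272 bases) had 1036 and 422 counts, with a ratio of 1.04, and Snord17, a C/D box snoRNA of 238 bases, had 232 and 93 counts, with a ratio of 1.06. Of 12 such entries with a mean count of at least 50, Snord17 included, 7 were higher in replicate 1 and 5 in replicate 2, over a range of -0.96 to 2.25. Apart from Gm22009, those higher in replicate 2 were Rnu3b1, Rnu3b2, Rnu3b3 and Rnu3b4 of 215 bases. These U3 genes carry identical values, 47.3 and 77.4 counts in replicates 1 and 2, so they are not separate observations and the tally of directions is uneven. Entries of 216 bases with the symbols Rnu3b2 and Rnu3b3, below the count minimum, went the other way. Each had 43.2 and 11.6 counts in replicates 1 and 2, a ratio of 1.54. In the second quantification the 215-base entries were at 0 in both libraries, and the 216-base entries had 161 and 154 counts each. The entries of this section were chosen after their values were seen, and several are U3 genes (Rnu3) that may share reads.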
